A study of Mus musculus with 15 samples.

Results

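Cytotoxic lymphocytes kill through granules that hold granzymes and perforin, and natural killer (NK) cells recognise targets through receptors of the Klr and Ncr families. The 10 genes described here are Gzma, Prf1, Nkg7, Ccl5, Ncr1, Klrb1c, Klrk1, Klrd1, Eomes and Tbx21. They were chosen by name, as granule, chemokine, NK receptor and T-box genes of that program, out of 45706 gene identifiers in the count table. They were followed in regulatory T cells (Tregs), Foxp3+ T cells that hold other immune cells in check.

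Messenger RNA was sequenced in bulk from sorted Foxp3+ Tregs of spleen, thymus and peritoneal cavity of adult mice, 15 libraries in all. The dDC libraries came from animals of the line labelled RelB-dDC (3 from spleen, 2 from thymus, 2 from peritoneal cavity), and the control libraries, labelled wt or ctr, from their littermates (3, 3 and 2 libraries). All animals were C57BL/6 mice carrying a Foxp3 reporter that marked the sorted cells. The labels do not spell out the line's name; it is read here as deletion in dendritic cells of Relb, which encodes an NF-kappaB subunit, and no source used here names the driver of that deletion. The Tregs are then not the cells in which the gene is deleted, so no gene measured here checks the genotype label. The labels do not say whether libraries of a group came from separate animals, so every p-value measures only the spread between these libraries.

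As background, perforin opens the target membrane to granzymes, and both are stored in granules with the membrane protein Nkg7. The T-box factors T-bet (Tbx21) and Eomes drive this program in NK cells and CD8 T cells. Activated Tregs can use granzymes and perforin against other immune cells, and T-bet marks Tregs that restrain type 1 inflammation, whereas Ncr1 and Klrb1c are used to define NK cells and related innate lymphocytes.

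Library totals lay between 15714286 and 24332044 counts, and 3 counts, the floor used for a value of 0, were worth 0.126 to 0.19 CPM (counts per library total after TMM scaling). Foxp3 had between 178.6 and 326.9 CPM in every library. Peritoneal control library 2 stood apart: it had 1187 CPM of the macrophage gene Lyz2, while the highest value in the other 14 libraries was 189.7 CPM. All 10 genes passed the filter on low counts, which kept 18423 genes. In bulk RNA, fewer cells that express a gene cannot be told apart from less of its RNA per cell.

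**Figure D1:**
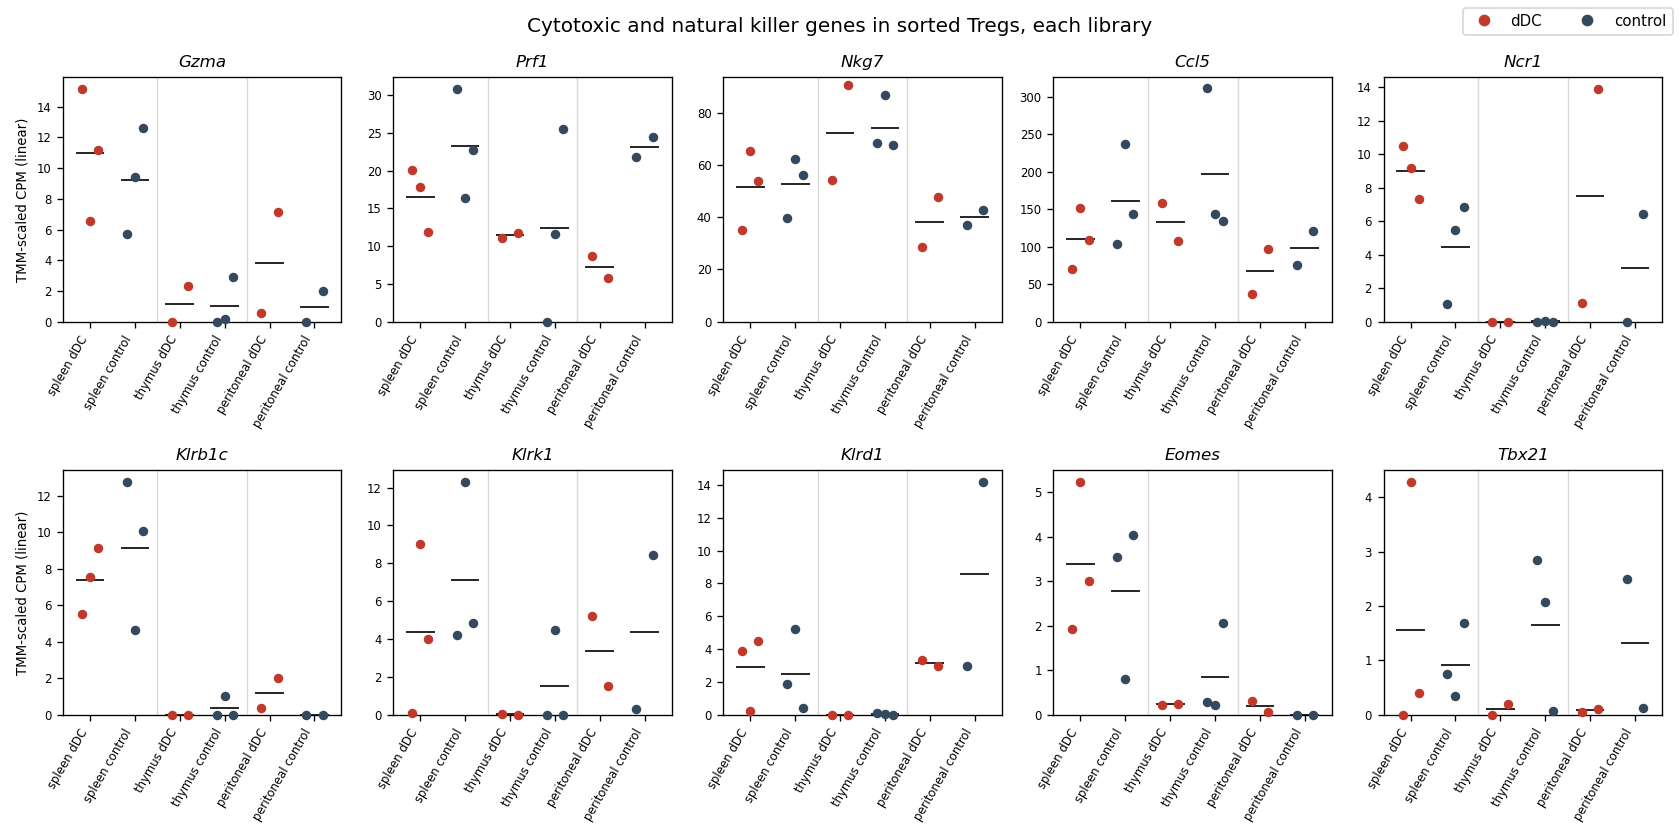
CPM of each of the 10 genes (linear y axis) in each library, by tissue and genotype (x axis); points are libraries, red for dDC and dark for control, and black bars are group means. Ccl5 and Nkg7 had reads in all 15 libraries, whereas Ncr1, Klrb1c and Klrd1 were at or near 0 in thymus, where their highest library had 1.04 CPM.

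Only Ccl5 and Nkg7 had reads in all 15 libraries, and they made up most of the program. They held between 65 and 99.2 percent of the summed CPM of the 10 genes in a library. Per gene length, as RPKM, CPM divided by the gene's length in kilobases, the median level over all libraries was 126 for Ccl5, 61.7 for Nkg7, 7.96 for Prf1 and 3.34 for Gzma. The median RPKM of the other 6 genes was 1.47 for Klrd1, 0.922 for Klrk1, 0.736 for Ncr1, 0.35 for Klrb1c, 0.136 for Tbx21 and 0.0743 for Eomes. Ccl5 stood above Nkg7, and Nkg7 above Prf1, in all 15 libraries. Below them the neighbours did not separate: Prf1 was above Gzma in 9 of the 15 libraries, Gzma above Klrd1 in 10 and Klrd1 above Klrk1 in 9. Libraries from spleen had reads of 9 or 10 of the genes, those from thymus of 5 to 10 and those from peritoneal cavity of 6 to 10.

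**Figure D2:**
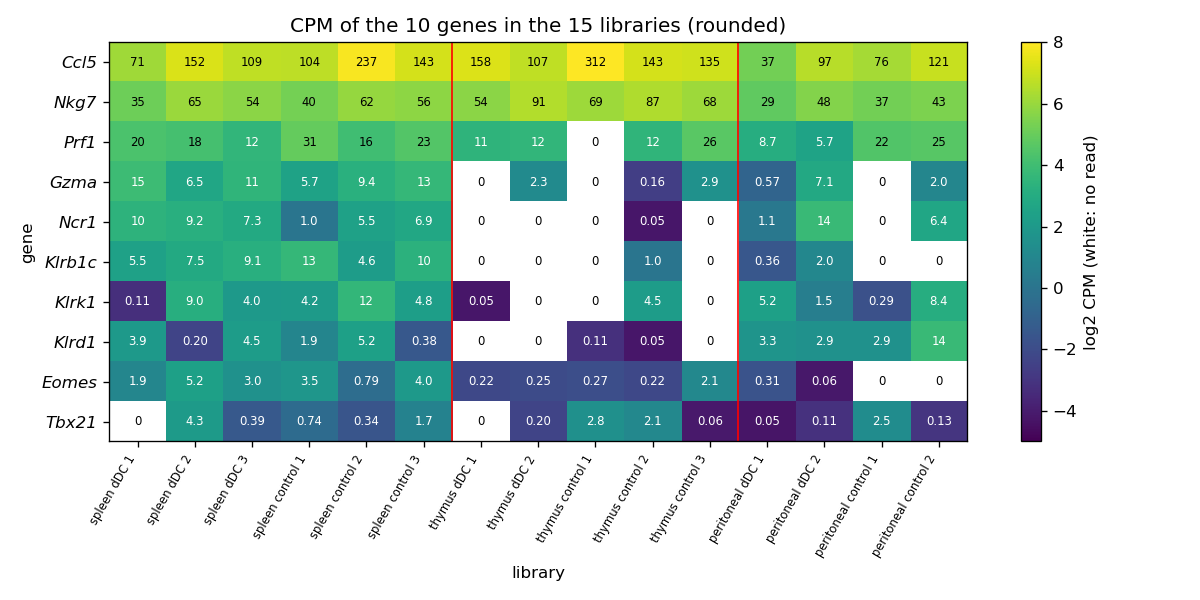
CPM of the 10 genes (rows) in the 15 libraries (columns); colour is log2 CPM, white marks no read, and the printed numbers are rounded CPM. Spleen libraries were filled almost throughout, thymus libraries lacked reads of up to 5 genes, and neighbouring libraries of 1 group often differed severalfold for the weak genes.

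The promoters of Gzma, Prf1, Nkg7 and Ncr1 are shown to set granule genes beside an NK receptor gene. They are the 250 bases before the RefSeq start in build GRCm38.p6, written 5′ to 3′ on the gene's strand; capitals mark every T-box core (AGGTGT or its reverse complement ACACCT) and every RUNX core (TGTGGT or its reverse complement ACCACA). The windows are chr13:113100982-113101231 on the minus strand for Gzma, chr10:61297586-61297835 on the plus strand for Prf1, chr7:43436888-43437137 on the plus strand for Nkg7 and chr7:4337465-4337714 on the plus strand for Ncr1. Ncr1 has a second RefSeq start, whose window chr7:4337474-4337723 is not printed and also holds 2 RUNX cores and 0 T-box cores.
Gzma: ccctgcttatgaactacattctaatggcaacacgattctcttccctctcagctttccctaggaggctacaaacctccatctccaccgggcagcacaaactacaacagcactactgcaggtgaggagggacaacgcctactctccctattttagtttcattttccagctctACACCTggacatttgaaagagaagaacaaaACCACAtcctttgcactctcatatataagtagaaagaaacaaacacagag
Prf1: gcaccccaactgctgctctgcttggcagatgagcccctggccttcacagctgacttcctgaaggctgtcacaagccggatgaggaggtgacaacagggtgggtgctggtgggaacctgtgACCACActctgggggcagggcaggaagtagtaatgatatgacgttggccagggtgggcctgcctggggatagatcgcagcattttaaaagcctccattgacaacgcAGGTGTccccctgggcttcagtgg
Nkg7: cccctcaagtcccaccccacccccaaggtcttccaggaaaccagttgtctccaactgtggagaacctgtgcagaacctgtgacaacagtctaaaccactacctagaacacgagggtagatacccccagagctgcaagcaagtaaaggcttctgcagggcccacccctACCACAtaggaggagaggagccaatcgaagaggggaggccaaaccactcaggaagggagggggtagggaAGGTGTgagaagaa
Ncr1: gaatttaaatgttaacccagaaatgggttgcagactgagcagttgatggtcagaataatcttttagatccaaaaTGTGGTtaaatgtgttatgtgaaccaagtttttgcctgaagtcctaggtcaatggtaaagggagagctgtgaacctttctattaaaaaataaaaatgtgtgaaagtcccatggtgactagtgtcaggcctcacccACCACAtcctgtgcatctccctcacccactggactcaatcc
Of the 8 members that matched the RefSeq promoter table (Gzma, Prf1, Nkg7, Ncr1, Klrb1c, Klrk1, Eomes and Tbx21), 3 held the T-box core in this window: Gzma at positions -80 to -75, Prf1 at -24 to -19 and Nkg7 at -14 to -9, counted back from the start. That core stood in 13.6 percent of 27025 genes. The RUNX core stood in 6 of the 8 (Gzma, Prf1, Nkg7, Ncr1, Klrb1c and Klrk1) and in 15.9 percent of all genes, and the AP-1 motif TGANTCA in 0 of the 8 and in 7.82 percent of all genes. Both strands were searched, and no T-box match overlapped a RUNX match. A match is a run of letters and does not show that a factor binds.

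Among the secreted and granule genes, Ccl5 (chr11:83525778-83530518, minus strand, mm10 as are all gene positions) encodes a chemokine that attracts T cells and myeloid cells. In spleen Ccl5 had 70.7, 152 and 109 CPM in dDC libraries, against 104, 237 and 143 CPM in control libraries. In thymus Ccl5 had 158 and 107 CPM in dDC libraries, against 312, 143 and 135 CPM in control libraries. In peritoneal cavity Ccl5 had 37.1 and 97.1 CPM in dDC libraries, against 75.6 and 121 CPM in control libraries. The groups overlapped in all 3 tissues, yet none of the 7 dDC libraries reached the mean of the controls of its own tissue.

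The fitted Ccl5 difference, dDC minus control on the log2 scale, was -0.55 (SE 0.46) in spleen, -0.57 (SE 0.52) in thymus and -0.55 (SE 0.57) in peritoneal cavity. Its average over the tissues was -0.56 (SE 0.30, 95% interval -1.23 to 0.12, unadjusted p = 0.0892, adjusted p = 0.61 by edgeR). The estimates were close to each other, and the difference did not pass the test in any tissue or on average. Leaving out any single library kept the average between -0.84 and -0.38, with adjusted p between 0.482 and 0.89. Ccl5 also varied more than genes of like level: its biological coefficient of variation was 0.39, against a median of 0.21 over 2707 such genes.

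Nkg7 (chr7:43437073-43438246, plus strand), a granule membrane protein needed for killing, was the steadiest of the 10 genes. In spleen Nkg7 had 35.2, 65.4 and 53.9 CPM in dDC libraries, against 39.6, 62.3 and 56.2 CPM in control libraries. In thymus Nkg7 had 54.2 and 90.7 CPM in dDC libraries, against 68.5, 86.9 and 67.6 CPM in control libraries. In peritoneal cavity Nkg7 had 28.8 and 47.7 CPM in dDC libraries, against 37.2 and 42.8 CPM in control libraries. Genotypes overlapped in each tissue. The average log2 difference, dDC minus control, was -0.05 (SE 0.19), and its 95% interval ran from -0.47 to 0.38. Among the 10 genes this was the narrowest interval, and the biological coefficient of variation of Nkg7, 0.27, equalled the median of 4228 genes of like level.

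Prf1 (chr10:61297836-61304263, plus strand) encodes perforin. In spleen Prf1 had 20.04, 17.9 and 11.9 CPM in dDC libraries, against 30.9, 16.4 and 22.8 CPM in control libraries. In thymus Prf1 had 11.1 and 11.8 CPM in dDC libraries, against 0, 11.6 and 25.6 CPM in control libraries. In peritoneal cavity Prf1 had 8.65 and 5.72 CPM in dDC libraries, against 21.9 and 24.5 CPM in control libraries. The genotypes overlapped in spleen and thymus and did not overlap in peritoneal cavity. None of the 7 dDC libraries reached the control mean of its tissue, though the thymus mean of 12.38 CPM came from controls between 0 and 25.6 CPM. Thymus control library 1, with no Prf1 read, also had the most Ccl5 of all libraries. The log2 difference, dDC minus control, was -1.69 (SE 1.37, adjusted p = 0.886 by edgeR) in peritoneal cavity and -0.77 (SE 0.71, 95% interval -2.38 to 0.84, adjusted p = 0.838) on average.

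Gzma (chr13:113093825-113100979, minus strand) encodes granzyme A, a granule protease. In spleen Gzma had 15.2, 6.53 and 11.2 CPM in dDC libraries, against 5.71, 9.42 and 12.6 CPM in control libraries. In thymus Gzma had 0 and 2.31 CPM in dDC libraries, against 0, 0.164 and 2.93 CPM in control libraries. In peritoneal cavity Gzma had 0.566 and 7.11 CPM in dDC libraries, against 0 and 1.96 CPM in control libraries. Every spleen library lay above every thymus library, and the genotypes overlapped in each tissue. Its average log2 difference, dDC minus control, was 0.79 (SE 1.15, 95% interval -1.81 to 3.40). Leaving out single libraries moved that average between -1.70 and 3.21, so not even its sign was settled.

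The spread of Gzma and Prf1 between libraries of 1 group was wide for their level. Their biological coefficients of variation were 1.45 and 0.9, against medians of 0.79 and 0.45 for genes of like level, and 93 and 93.6 percent of those genes varied less. Granzymes form a family with similar sequences, as do the Klr receptors, and no source used here says how reads that match several places were counted, so reads could be split between relatives. No annotated gene overlapped any of the 10.

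Of the NK receptors, Ncr1 (chr7:4337724-4345164, plus strand) encodes NKp46, an activating receptor that defines NK cells. In spleen Ncr1 had 10.5, 9.18 and 7.33 CPM in dDC libraries, against 1.03, 5.47 and 6.86 CPM in control libraries. In peritoneal cavity Ncr1 had 1.13 and 13.9 CPM in dDC libraries, against 0 and 6.40 CPM in control libraries. In thymus a single read was found in 5 libraries, in control library 2. The dDC spleen libraries all lay above the control ones, the only one of the 10 genes whose genotypes did not overlap in spleen, where 10.1 percent of all tested genes did not overlap. Its spleen log2 difference, dDC minus control, was 1.01 (SE 1.47, 95% interval -2.32 to 4.34, adjusted p = 1 by edgeR). The spleen difference was negative for Klrb1c (-0.31, SE 1.38) and Klrk1 (-0.70, SE 1.87) and positive for Klrd1 (0.21, SE 1.25). The 7 NK markers outside the 10 genes that are named further on summed to 40.5, 28.1 and 14.7 CPM in spleen dDC libraries, against 11.2, 14.6 and 7.7 CPM in spleen control libraries. The lowest dDC sum and the highest control sum were thus nearly equal. Of these sums, Itga2 alone gave 22.87, 13.66 and 3.01 CPM in dDC libraries, against 2.283, 2.031 and 7.616 CPM in control libraries. Of 11 NK markers, a list that also holds Ncr1, Klrb1c and Eomes, 10 had a positive spleen difference, where 48.4 percent of all tested genes did, and 0 were called by edgeR, with 0 at an unadjusted p under 0.05. In thymus 2 of the 11 were positive, and in peritoneal cavity 6, against 46.2 and 50 percent of all tested genes. In thymus dDC libraries 7 of the 11 had no read. The part of these markers in the Ncr1 values was not tested.

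The other 3 receptor genes lie within 0.845 megabases of chromosome 6. Klrb1c (chr6:128778485-128789215, minus strand) encodes NK1.1, the antigen used to stain NK and NKT cells of C57BL/6 mice. In spleen Klrb1c had 5.50, 7.53 and 9.13 CPM in dDC libraries, against 12.8, 4.63 and 10.1 CPM in control libraries, which overlapped. In peritoneal cavity Klrb1c had 0.360 and 2.00 CPM in dDC libraries, against 0 CPM in both control libraries. In thymus all 19 of its reads came from control library 2, and the other 4 libraries had none. Spleen was therefore the only tissue with Klrb1c reads in every library.

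Klrd1 (chr6:129591782-129598775, plus strand) encodes CD94, which pairs with NKG2 proteins. In spleen Klrd1 had 3.90, 0.1995 and 4.52 CPM in dDC libraries, against 1.88, 5.19 and 0.379 CPM in control libraries. In peritoneal cavity Klrd1 had 3.35 and 2.94 CPM in dDC libraries, against 2.94 and 14.2 CPM in control libraries. In thymus Klrd1 had 0 CPM in both dDC libraries, against 0.110, 0.0545 and 0 CPM in control libraries. The genotypes overlapped in spleen and peritoneal cavity, and the highest library was peritoneal control library 2.

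Klrk1 (chr6:129610323-129623864, minus strand) encodes NKG2D, an activating receptor for stress ligands that signals through DAP10. In spleen dDC libraries it had 0.107, 9.03 and 3.98 CPM, against 4.22, 12.3 and 4.84 CPM in spleen control libraries. In peritoneal cavity Klrk1 had 5.20 and 1.5 CPM in dDC libraries, against 0.294 and 8.43 CPM in control libraries. In thymus 82 of its 83 reads were in control library 2, which was also the thymus library with the Klrb1c reads. The genotypes overlapped in every tissue. The average log2 difference, dDC minus control, was -2.19 (SE 1.35, adjusted p = 0.671 by edgeR), and leaving out single libraries moved it between -2.97 and 0.42.

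The T-box factors were the weakest of the genes per length. Eomes (chr9:118478212-118486132, plus strand), the factor of NK cells and memory CD8 T cells, had 1.92, 5.24 and 3.01 CPM in spleen dDC libraries, against 3.54, 0.790 and 4.04 CPM in spleen control libraries. In thymus Eomes had 0.219 and 0.245 CPM in dDC libraries, against 0.274, 0.218 and 2.07 CPM in control libraries. In peritoneal cavity Eomes had 0.309 and 0.0556 CPM in dDC libraries, 7 reads in all, against 0 reads in control libraries. Eomes thus had reads in all spleen and thymus libraries, but thymus libraries other than control library 3 had only 4 or 5 reads each. Peritoneal dDC library 1, with 6 reads, lay above those thymus libraries in CPM.

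Tbx21 (chr11:97098071-97115331, minus strand), the T-bet gene, had 0, 4.29 and 0.388 CPM in spleen dDC libraries, against 0.742, 0.338 and 1.68 CPM in spleen control libraries. In thymus Tbx21 had 0 and 0.196 CPM in dDC libraries, against 2.85, 2.07 and 0.0575 CPM in control libraries. In peritoneal cavity Tbx21 had 0.0515 and 0.111 CPM in dDC libraries, against 2.50 and 0.127 CPM in control libraries. The genotypes overlapped in spleen and thymus, and in peritoneal cavity the ranges were separated by less than the worth of 1 read. Its average log2 difference, dDC minus control, was -2.38 (SE 1.27, 95% interval -5.24 to 0.48, adjusted p = 0.601 by edgeR), and the control values behind it came mostly from 2 of the 3 thymus libraries and 1 of the 2 peritoneal libraries. Leaving out single libraries moved the average between -3.71 and -1.27, with -1.27 without peritoneal control library 1.

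The first question of the design is whether Tregs from dDC mice carry more or less of this program than control Tregs. No gene of the 10 passed an adjusted p of 0.05 in edgeR in spleen, in thymus, in peritoneal cavity or on average. Over all tested genes, 0 percent passed in spleen, 0 percent in thymus, 0.00543 percent in peritoneal cavity and 0.076 percent on average, so the background was near 0 as well. Under an unadjusted threshold of 0.05 the counts were 0 of 10 genes in spleen, 1 in thymus, 2 in peritoneal cavity and 0 on average, where 4.27, 6.57, 6.36 and 9.31 percent of all tested genes lay under it in the same order. The 3 values were Klrb1c in thymus (unadjusted p = 0.0453, adjusted p = 0.748 by edgeR), and Klrb1c (unadjusted p = 0.0184, adjusted p = 0.676) and Eomes (unadjusted p = 0.0244, adjusted p = 0.719) in peritoneal cavity. DESeq2 and limma voom also called 0 of the 10 in each of these comparisons.

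Each of those unadjusted values rests on a group without reads. For Klrb1c in peritoneal cavity, 43 reads in dDC libraries stood against 0 in control libraries, at least 6.94-fold higher against the floor of 3 counts per library. In thymus the direction was opposite, with 0 reads in dDC libraries against 19 in control libraries, which is at least 2.26-fold lower against the same floor. Reads made by PCR without molecular identifiers are not independent molecules, so these bounds and the intervals of pooled reads below cover counting error only.

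The library ranges of dDC and control did not overlap for 1 of 10 genes in spleen, 0 of 10 in thymus, where 19.4 percent of all tested genes did not overlap, and 4 of 10 in peritoneal cavity, where 34.1 percent did not overlap. The 4 were Klrb1c and Eomes, higher in dDC, and Prf1 and Tbx21, lower in dDC. Fitted differences were positive for 5 of 10 genes in spleen and for 48.4 percent of all tested genes, with a median of 0.09 for the 10 and -0.01 for all. In thymus they were positive for 1 of 10, against 46.2 percent of all, in peritoneal cavity for 4 of 10, against 50 percent, and on average for 4 of 10, against 47.9 percent. No median is given outside spleen, since some of the fitted values rest on groups without reads. On average, the signs counted for Ncr1, Klrb1c, Klrd1 and Eomes rest on such groups too. For Klrb1c both thymus dDC and peritoneal control libraries had no reads, so its sign and test on average decide nothing.

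**Figure D3:**
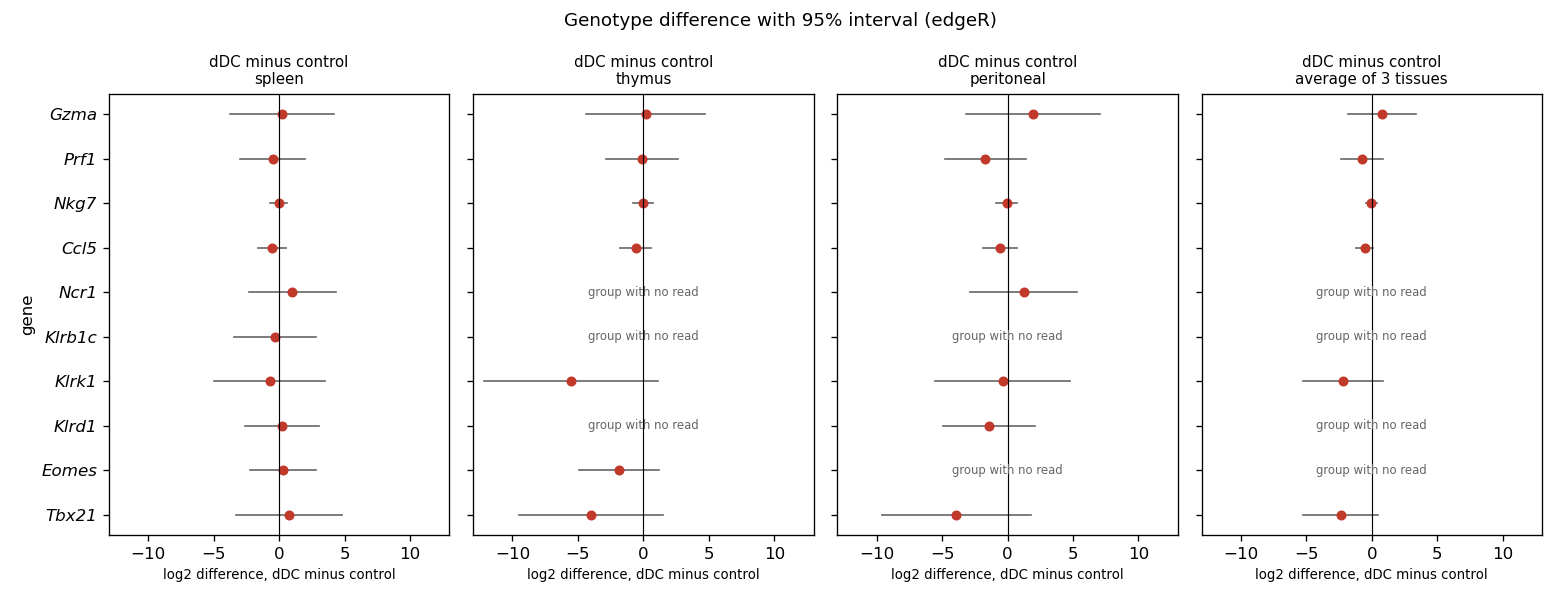
Log2 difference, dDC minus control, of the 10 genes (y axis) in each tissue and on average; points are edgeR estimates, lines are 95% intervals, and pairs with a group without reads are marked in place of an estimate. All drawn intervals include 0, and those of Nkg7 and Ccl5 are the shortest.

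Whether the genotype difference itself differed between tissues was tested as an interaction. In edgeR 0 of 10 genes passed in each of the 3 interactions, and 0 percent of all tested genes did. Under an unadjusted threshold of 0.05 there were 2 genes for peritoneal cavity minus spleen, 0 for thymus minus spleen and 2 for peritoneal cavity minus thymus, against 4.89, 5.06 and 5.72 percent of all tested genes in the same order. In both cases the 2 genes were Klrb1c and Eomes, with adjusted p = 0.998 for each gene in the first of these interactions and 0.84 for each in the last, by edgeR. DESeq2 called 1 of the 10, Klrb1c, for peritoneal cavity minus thymus (adjusted p = 0.0252), where it called 112 of all tested genes, and 0 of the 10 in the other interactions, and limma voom called 0 in all of them.

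Averaged over both genotypes, Ncr1 and Klrd1 differed between thymus and the other tissues and Eomes differed between peritoneal cavity and spleen, while Klrb1c and Klrk1 passed in no tissue comparison in edgeR. Klrb1c could not be judged for peritoneal cavity minus thymus, since thymus dDC and peritoneal control libraries had no reads of it. Compared with spleen, thymus Tregs had fewer reads of Ncr1 and Klrd1, and 2 of 10 genes were called lower, against 0.901 percent of all tested genes called lower and 1.32 percent called in either direction. Ncr1 had 1 read in thymus libraries against 809 in spleen libraries, a 633-fold lower pooled CPM (95% counting interval 113 to 25000; adjusted p = 0.0464 by edgeR). Klrd1 had 3 reads in thymus against 304 in spleen, 79.3-fold lower (26.9 to 387; adjusted p = 0.0407). Klrb1c, with 19 reads in thymus against 988 in spleen, missed the threshold in edgeR (adjusted p = 0.0675) and passed it in DESeq2 and limma voom (adjusted p = 2.25e-06 and 0.00267) and in edgeR without thymus control library 2, which held all the thymus reads (adjusted p = 0.00713). No spleen library overlapped a thymus library for Gzma, Ncr1, Klrb1c or Klrd1, where 2.99 percent of all tested genes did not overlap.

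Both called thymus genes stood close to the threshold. Ncr1 lost the call without any single spleen or thymus library and without peritoneal dDC library 2, with adjusted p between 0.0538 and 0.232 in those runs. Klrd1 lost it without any thymus library, without spleen dDC libraries 1 and 3, spleen control libraries 1 and 2, peritoneal dDC libraries 1 and 2 and peritoneal control library 2, with adjusted p between 0.0514 and 0.22. It was also lost in limma voom (adjusted p = 0.0886) and in edgeR with only the groups compared (0.0785). Nkg7 leaned the other way, with a log2 difference of 0.49 (SE 0.22, adjusted p = 0.377), thymus minus spleen.

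Compared with spleen, peritoneal Tregs had fewer Eomes reads, the only one of 10 genes called, against 1.66 percent of all tested genes called lower and 2.89 percent called in either direction. There were 7 Eomes reads in peritoneal libraries against 375 in spleen libraries, a 33.3-fold lower pooled CPM (95% counting interval 16 to 83.5; adjusted p = 0.0206 by edgeR). The call was lost without any single peritoneal library: adjusted p was 0.0691 without dDC 1, 0.119 without dDC 2, 0.0649 without control 1 and 0.0979 without control 2. It was also lost without a genotype term in the fit (adjusted p = 0.0592). Klrb1c had 43 peritoneal reads against 988 spleen reads and missed the threshold in edgeR (adjusted p = 0.0754), but passed it in DESeq2 and limma voom (adjusted p = 0.000111 and 0.00604). Ncr1 did not pass, with a log2 difference of -0.37 (SE 1.17, adjusted p = 0.961), peritoneal cavity minus spleen.

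Compared with thymus, peritoneal Tregs had more Ncr1 and Klrd1 reads, and 2 of 10 genes were called higher, against 3.03 percent of all tested genes called higher and 5.61 percent called in either direction. Klrd1 had 402 reads in peritoneal libraries against 3 in thymus libraries, a 169-fold higher pooled CPM (57.3 to 821; adjusted p = 0.0104 by edgeR), and lost the call only without thymus dDC library 1 (adjusted p = 0.0629) among the runs that left out 1 library. Ncr1 had 373 reads against 1, 469-fold higher (83.7 to 18600; adjusted p = 0.0212), and lost the call without thymus dDC 1 (adjusted p = 0.105), thymus dDC 2 (0.08), peritoneal dDC 2 (0.0634) or peritoneal control 2 (1). That call was also lost in limma voom (adjusted p = 0.11) and in edgeR with only the groups compared (0.115). The peritoneal Ncr1 reads came from 3 of 4 libraries, with 250 of the 373 in dDC library 2. Nkg7 was lower by a log2 difference of -0.91 (SE 0.25, adjusted p = 0.0557), and Ccl5 by -0.99 (SE 0.39, adjusted p = 0.194). Nkg7 ranged from 28.78 to 47.72 CPM in peritoneal libraries and from 54.17 to 90.67 CPM in thymus libraries.

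All 5 tissue calls were lost when tissues were compared in only the control or only the dDC groups, within the fit of all 15 libraries. Each call involves a group without reads, for which no fitted fold is given. The difference between tissues for a gene was not tested apart from other cells in the sort, and markers of other cells also differed between the tissues. The summed CPM of 8 B cell markers was between 42.14 and 89.17 in thymus libraries, 1113 and 2316 in peritoneal libraries and 363 and 1097 in spleen libraries. The summed CPM of 10 macrophage and monocyte markers was between 3.33 and 29.9 in thymus, 61 and 1681 in peritoneal cavity and 104.5 and 372.3 in spleen. The summed CPM of 5 erythroid markers, globin genes among them, was between 0.687 and 271.9 in thymus, 1.13 and 263 in peritoneal cavity and 1565 and 5145 in spleen. Of the 4 erythroid markers tested, edgeR called 3 lower in thymus and 2 lower in peritoneal cavity than in spleen, against 0.901 and 1.66 percent of all tested genes. Their part in the differences of Ncr1, Klrd1, Klrb1c and Eomes was not tested.

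NK cell markers outside the 10 genes were present at a low level. Leaving out Tyrobp, an adaptor that myeloid cells share, the 7 others (Klra8, Klra4, Klra9, Klre1, Klri2, Itga2 and Sh2d1b1) summed to between 0.0575 and 18.6 CPM in thymus libraries, 11.8 and 40 CPM in peritoneal libraries and 7.7 and 40.5 CPM in spleen libraries. Klra8 and Klra4 had 0 reads in every thymus and peritoneal library, whereas Itga2 made up most of the peritoneal sum, with 11.8 to 37.5 CPM. Tyrobp reached 100.9 CPM in peritoneal control library 2, the library with the most Lyz2 and the most Klrd1. The CD8 T cell gene Cd8a reached 18.4 CPM in spleen control library 2, which also had the most spleen Ccl5, and lay between 0 and 7.64 CPM in the other 14 libraries. The CD8 gene Cd8b1 did not follow it, with 8.805 to 58.89 CPM over all libraries. Cd8b1 had 50.65 CPM in spleen control library 2 and was highest in thymus control library 1, where Cd8a had 0 CPM. In the averaged comparison of dDC with control, 0 of 58 tested markers of 10 other cell types were called by edgeR, and 10 had an unadjusted p under 0.05, where 9.31 percent of all tested genes did. The part of NK cells or CD8 T cells in the levels of the 10 genes was not tested.

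**Figure D4:**
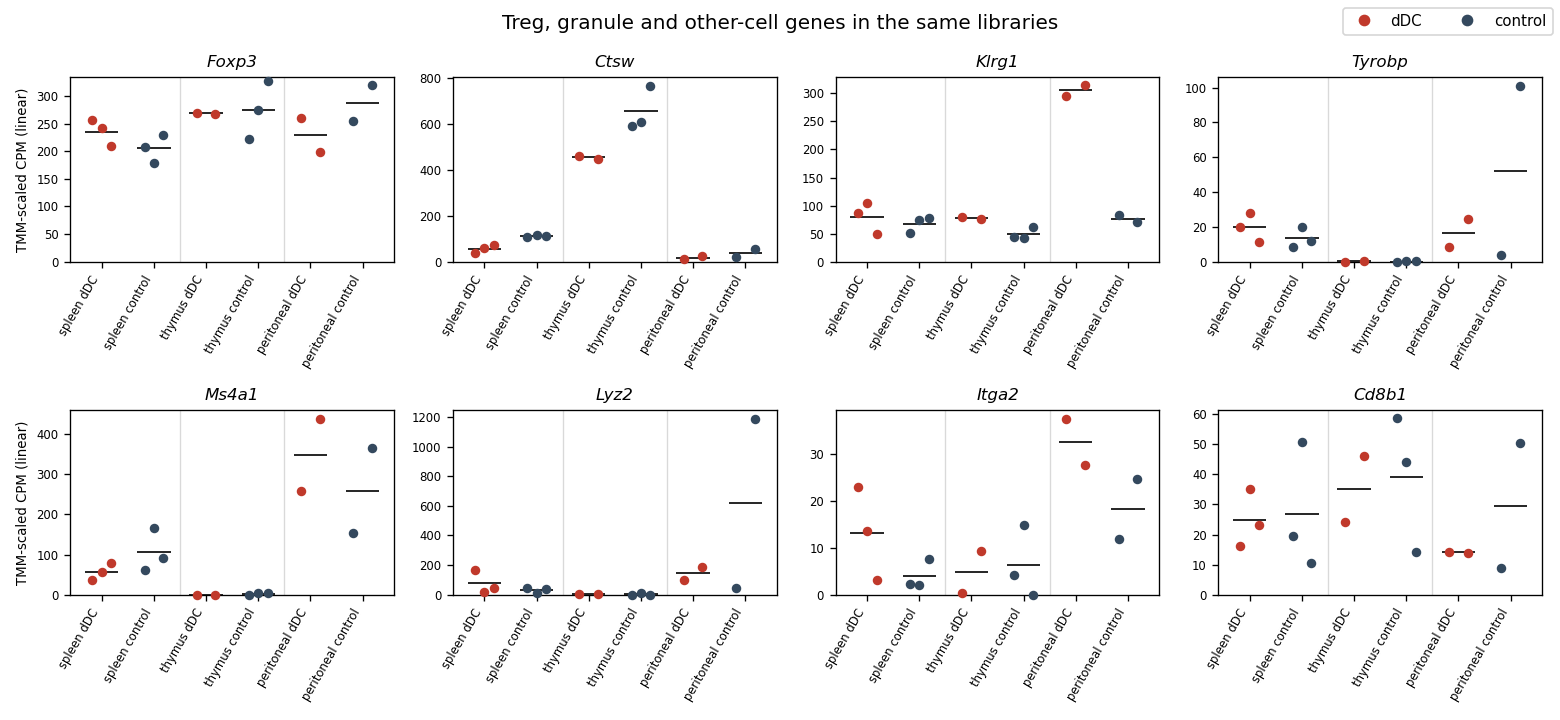
CPM (linear y axis) of Foxp3, the granule protease gene Ctsw, the receptor gene Klrg1, Tyrobp, the B cell gene Ms4a1, Lyz2, the NK marker Itga2 and the CD8 gene Cd8b1 in each library by tissue and genotype; points are libraries, bars are group means. Foxp3 was between 178.6 and 326.9 CPM throughout, Ctsw was highest in thymus, and Ms4a1 was at or under 4.02 CPM in thymus, where the lowest library of the other tissues had 35.96 CPM.

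The wider cytotoxic program was followed in 7 further lists of genes. In the averaged comparison of dDC with control, 0 of their 90 tested genes were called in edgeR, and 19 had an unadjusted p under 0.05, where 1715 of all 18423 tested genes (9.31 percent) did. Among granzymes other than Gzma, 3 of 9 were tested, and Gzmb, the main killing protease, had a log2 difference of -0.55 (SE 0.88, adjusted p = 0.95). Among 15 tested genes of granule storage and release, the smallest p was that of Ctsw, a cathepsin of cytotoxic lymphocytes, with -0.90 (SE 0.24, adjusted p = 0.252). Among 22 other NK receptors it was that of Klrg1, an inhibitory receptor of terminally differentiated effector cells, with 0.97 (SE 0.17, adjusted p = 0.0875). Among 11 adaptors and ligands of NK receptors it was Hcst, the DAP10 adaptor of Klrk1, with 0.48 (SE 0.11, adjusted p = 0.199).

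The median of the 21 tested transcription factors of the type 1 and cytotoxic program was 0.01 and that of the 11 cytokine receptors 0.11, against -0.02 for all tested genes. Id2, an inhibitor of E proteins, had the smallest p among these factors, with 0.57 (SE 0.14, adjusted p = 0.225), and Il18r1, part of the IL-18 receptor, among these receptors, with 0.61 (SE 0.15, adjusted p = 0.225). Tnf led the 7 death ligands and effector cytokines with 0.75 (SE 0.24, adjusted p = 0.366).

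Between tissues the same lists, chosen with earlier results of these data known, did hold called genes. Of their 90 tested genes, edgeR called 7 for thymus minus spleen, 18 for peritoneal cavity minus spleen and 27 for peritoneal cavity minus thymus. Over all tested genes it called 1.32, 2.89 and 5.61 percent in the same order. Ctsw was between 447 and 767 CPM in thymus libraries, 9.78 and 56.7 CPM in peritoneal libraries and 37.2 and 115 CPM in spleen libraries. Its log2 difference was 2.80 (SE 0.29, adjusted p = 0.000537 by edgeR) for thymus minus spleen and -4.40 (SE 0.36, adjusted p = 3.06e-05) for peritoneal cavity minus thymus. Ctsw thus rose in thymus Tregs, in which Gzma had at most 2.93 CPM. Of the 15 granule storage and release genes, 1 rose and 1 fell in thymus against spleen, 1 rose and 1 fell in peritoneal cavity against spleen, and 3 rose and 2 fell in peritoneal cavity against thymus. Lyst, a regulator of lysosome size, rose in peritoneal cavity against spleen (log2 difference 2.13, SE 0.26, adjusted p = 0.0011), and Srgn, the granule proteoglycan, fell in thymus against spleen (-0.53, SE 0.09, adjusted p = 0.0152).

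Of the 7 tested death ligands and effector cytokines, 0 passed in thymus against spleen (3 at an unadjusted p under 0.05 in edgeR), 2 fell in peritoneal cavity against spleen and 3 fell against thymus. Lta, which encodes lymphotoxin alpha, fell in peritoneal cavity against spleen (log2 difference -2.50, SE 0.20, adjusted p = 5.12e-05), as did Tnf (-1.80, SE 0.32, adjusted p = 0.00973).

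Of the 22 other NK receptors, 1 rose and 1 fell in peritoneal cavity against spleen, 2 rose and 1 fell against thymus, and 0 passed in thymus against spleen (9 at an unadjusted p under 0.05 in edgeR). Averaged over genotypes, Klrg1 rose in peritoneal cavity against spleen (log2 difference 1.06, SE 0.20, adjusted p = 0.0161), and Cd160, a receptor of NK, NKT and CD8 T cells, fell (-4.27, SE 0.69, adjusted p = 0.0058). The Klrg1 rise lay mostly in dDC libraries, with 296.2 and 315.3 CPM in peritoneal cavity against 86.93, 104 and 48.94 CPM in spleen. Control libraries overlapped, with 83.16 and 70.25 CPM in peritoneal cavity against 51.42, 74.51 and 77.8 CPM in spleen. For dDC minus control in peritoneal cavity, 0 of the 22 were called by edgeR (smallest adjusted p = 0.104). Of the 11 adaptors and ligands, 2 fell in peritoneal cavity against spleen, 2 fell in thymus against spleen, and 4 rose and 2 fell in peritoneal cavity against thymus. Tyrobp, the DAP12 adaptor, fell in thymus against spleen (log2 difference -7.74, SE 1.12, adjusted p = 0.00473), as did the kinase gene Syk (-6.82, SE 0.88, adjusted p = 0.00239), both of which B or myeloid cells also express.

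Of the 21 tested transcription factors, 1 rose and 5 fell in peritoneal cavity against spleen, 6 fell against thymus, and 0 passed in thymus against spleen (3 at an unadjusted p under 0.05 in edgeR). Tox, a factor of T cell differentiation, fell in peritoneal cavity against spleen (log2 difference -1.17, SE 0.13, adjusted p = 0.000547), as did Id3, an inhibitor of E proteins (-1.46, SE 0.22, adjusted p = 0.00405), and the AP-1 factor gene Batf (-1.08, SE 0.16, adjusted p = 0.00303). Of the 11 cytokine receptors, 2 rose and 2 fell in peritoneal cavity against spleen, 1 rose and 3 fell against thymus, and 3 rose in thymus against spleen. Ifngr1, the interferon gamma receptor chain, rose in peritoneal cavity against spleen (log2 difference 2.80, SE 0.16, adjusted p = 4.04e-06), and Il2rb, the chain shared by the IL-2 and IL-15 receptors, fell (-0.84, SE 0.11, adjusted p = 0.00192). Of the 3 tested granzymes, 0 were called in any tissue comparison by edgeR, with 1, 1 and 0 at an unadjusted p under 0.05 for thymus minus spleen, peritoneal cavity minus spleen and peritoneal cavity minus thymus. Gzmb was between 0 and 10.3 CPM in thymus, 0.556 and 5.53 CPM in peritoneal cavity and 10.5 and 29.5 CPM in spleen.

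Genes that mark Tregs were followed as well. Of 9 tested, 0 were called by edgeR in the averaged comparison of dDC with control, and 4 had an unadjusted p under 0.05, where 9.31 percent of all tested genes did. Between tissues, 2 rose and 1 fell in peritoneal cavity against spleen, 5 fell against thymus, and 3 rose in thymus against spleen. Over all tested genes, 2.89, 5.61 and 1.32 percent were called in the same order. Tnfrsf18, which encodes GITR, rose in peritoneal cavity against spleen (log2 difference 1.04, SE 0.09, adjusted p = 0.000108), and Tnfrsf4, which encodes OX40, rose in thymus against spleen (1.15, SE 0.10, adjusted p = 0.000228). Ikzf4, which encodes the Treg factor Eos, fell in peritoneal cavity against thymus (-1.42, SE 0.18, adjusted p = 0.00073).

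For the 4 genes with a mean of at least 5 CPM, the genes whose log2 CPM followed theirs most closely over the 15 libraries are given as a description, since the libraries share tissues and genotypes. Gzma was followed by Jchain (r = 0.922), a gene of antibody-secreting cells, by Il10 (0.877) and by Nectin1 (0.876). Nkg7 was followed by Bace2 (0.886), Xcl1 (0.864) and Lmo4 (0.846), of which Xcl1 is itself a chemokine gene of cytotoxic lymphocytes. Prf1 was followed by Zfp599 (0.93), Pomt1 (0.917) and Aldoc (0.886), and Ccl5 by Uck2 (0.858), Atp5d (0.823) and Dgkz (0.82). None of the 4 genes was among the closest of another.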

How the data were processed

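RNA of sorted Tregs was sequenced from 15 libraries. The authors deposited 1 table of raw counts per gene and library; per the submitters' processing notes, bcl2fastq 2.19.1, GSNAP and featureCounts 1.6.0 were used with build mm10. Per the labels' protocols, cDNA came from poly-dT priming with template switching and unstranded library chemistry, so levels are of polyadenylated RNA amplified by PCR.

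Groups were taken from each library's label. The 92 spike-in features, with at most 6 reads in a library, were left out. Counts were filtered with filterByExpr, scaled by TMM and fitted in edgeR 4.0.16 (R 4.3.3) as 1 robust quasi-likelihood model with a mean for each of 6 groups (9 residual degrees of freedom) and two-sided tests, with Benjamini-Hochberg adjustment over 18423 genes and a threshold of 0.05. The members, the 18 further gene lists and the tests were chosen with earlier results of these data known. All members were reported, with examples from the further lists that were chosen after their values were seen. RPKM was computed from the gene length in the table. Intervals of pooled reads are exact. Where a group had no read, no fitted fold is given. Statistical code was tested on simulated data. Alternatives were other scalings, filters, sets of libraries, DESeq2 1.42.0, limma voom (limma 3.58.1), a block of neighbouring library numbers and leaving out each library. Some results are not reported here.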

Additional observations from a re-analysis of the deposited data

How the results depend on the processing

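The number of the 10 genes called stayed at 0 in the 4 comparisons of dDC with control under every alternative run, and in the 3 interactions under all but DESeq2, which called 1 for peritoneal cavity minus thymus (and 112 of all tested genes, against 0 in edgeR). Leaving out single libraries gave 0 called genes in each of these comparisons. For thymus minus spleen (2 called), leaving out single libraries gave 0 to 2, DESeq2 gave 5 (of all tested genes it called 966, against 243 in edgeR), a fit of only the groups compared gave 1, and control or dDC libraries alone gave 0. For peritoneal cavity minus spleen (1 called), leaving out single libraries gave 0 to 2, DESeq2 (1241 of all genes called, against 533), limma voom, no low-count filter and only the groups compared each gave 2, and control libraries alone, dDC libraries alone and tissue means without a genotype term, an alternative chosen after seeing the data, each gave 0. For peritoneal cavity minus thymus (2 called), leaving out single libraries gave 1 to 3, DESeq2 gave 4 (2039 of all genes called, against 1034), limma voom and only the groups compared gave 1, and control or dDC libraries alone gave 0. The cause was not tested. The comparisons of control or dDC libraries alone kept the fit of all 15 libraries and compared the groups of 1 genotype. Nkg7 for peritoneal cavity minus thymus passed with library totals only (adjusted p = 0.046), without the filter (0.04), with a filter of 1 CPM in 4 libraries (0.0493), in DESeq2 (0.00611), without a genotype term (0.0222), without spleen dDC library 1 (0.0449) and without thymus dDC library 1 (0.0485). DESeq2 alone called Klrk1 and Eomes for thymus minus spleen (0.0264 and 0.0415) and Ccl5 for peritoneal cavity minus thymus (0.0493). Of 2450 alternative values for single genes, 2381 kept their direction or stayed uncalled, 48 lost the threshold, 21 gained it and 0 called values turned in direction. Most of these values belong to genes and comparisons not called in the main fit, which had no call to lose. All 48 losses fell on the 5 tissue calls. Each of those calls held in 3 to 14 of 15 runs without 1 library and in 7 to 9 of 11 other alternatives. RPKM changes no difference between groups and was used for levels alone. The labels give each library its own number and state no pairs. An odd number and the next joined 7 dDC and control libraries of 1 tissue, and the deviations of such neighbours from their group means correlated by -0.005 to 0.102 over 18423 genes. With these neighbours as a replicate block (14 libraries, 4 residual degrees of freedom, chosen after seeing the data), 0 genes in all were called in any comparison of dDC with control. The average Ccl5 difference was -0.62 (unadjusted p = 0.00217, adjusted p = 0.459 by edgeR), the smallest average p of the 10 genes. The average differences of Prf1 and Klrk1 changed sign in this fit, to 0.09 from -0.77 and to 0.47 from -2.19. The fit left out thymus control library 2, which has no such neighbour and held 82 of the 83 thymus Klrk1 reads. Without a block, leaving out single libraries already moved the Klrk1 average up to 0.42. The part of the block in the Klrk1 change was not tested. The biological coefficient of variation was at least 1.4 for Gzma, Klrk1 and Tbx21, against 0.27 for Nkg7.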
